A study of Rattus norvegicus with 52 samples.

Results

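NF-kB is a family of dimeric transcription factors, and the 10 genes described here encode its 5 subunits, 4 of its inhibitors and 1 activating kinase. The subunits were Rela (p65), Rel (c-Rel), Relb, Nfkb1 (made as a precursor of p50) and Nfkb2 (made as a precursor of p52). The inhibitors were Nfkbia, Nfkbib and Nfkbie, which encode the IkB proteins alpha, beta and epsilon, and Tnfaip3, which encodes the ubiquitin-editing protein A20. The kinase was Ikbkb, the catalytic IKK-beta subunit. The genes were listed by name and looked up by symbol, and all 10 had a row among the 22081 genes of the count table. They were followed across 52 single-cell libraries, as raw counts, as detection (1 or more counts in a cell) and as co-occurrence of subunits with inhibitors.

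In resting cells IkB proteins hold NF-kB dimers in the cytoplasm. Signals from Toll-like, interleukin-1 and tumour necrosis factor receptors activate the IKK complex, IkB is phosphorylated and degraded, and the dimers enter the nucleus. Nfkbia and Tnfaip3 are themselves targets of NF-kB and close a negative feedback loop, while Relb and p52 form the dimer of the non-canonical branch, which the kinase NIK (Map3k14) drives. In macrophages the pathway is best known for switching on inflammatory cytokines, chemokines and adhesion molecules.

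All cells belonged to 1 group. They came from male Sprague Dawley rats, 7 weeks old, in which the left common carotid artery had been joined end to side to the right one, with ligation of the left renal artery and a salt-rich chow (8% NaCl) with the lysyl oxidase inhibitor 3-aminopropionitrile at 0.12%. Phagocytes were marked through injected nanoparticles with the dye DiI, and 3 days later marked cells were cut singly from the lesion with a laser and made into libraries, by the labels with a SMART-Seq Single Cell Plus kit. Rat 1 gave 5 cells, rat 2 gave 23 and rat 3 gave 24, and no control artery was analysed here. The rat was the replicate (n = 3). DiI marks what takes up particles, so the label of macrophage rests on uptake.

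Depth and cell identity bear on every value below. The cells held between 1538 and 84848 counts, and the median cell had 18261 in rat 1, 11390 in rat 2 and 21841 in rat 3. Of 18 macrophage markers, 17 reached 5 counts in some cell, but 31 cells had none at that level and 7 had no count of any of them. The summed macrophage marker count ran from 0 to 1403 per cell, with a median of 5, beside 0 to 179 (median 5) for 8 smooth muscle markers, 0 to 709 (median 4.5) for 7 fibroblast markers and 0 to 23 (median 4) for 7 endothelial markers. Sums for 6 neutrophil markers ran from 0 to 29 and for 6 T cell markers from 0 to 3, both with a median of 0. The 18 macrophage markers were found in 1 to 33 cells each, with a median of 6. Mrc1 was found in the most, 33 cells, then Spi1 and Cybb in 16 each and Csf1r in 12, while Cd68 was found in 6, Aif1 in 2 and Cd14 in 1. The label was thus borne out by strong marker counts in some cells only. In rat 3 cell 44, which had 4 counts of Nfkbia and 2 of Ikbkb, a single feature made up 51.6% of the library. Intervals and limits for 0 counts cover counting error only.

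Most promoters of the genes held a match to the kappaB consensus, which the list did not use, and 4 are shown because the feedback genes Nfkbia and Tnfaip3 and the 2 precursor genes are known to be regulated by NF-kB itself. RefSeq promoter windows of the GRCr8 assembly, 250 bases before to 50 after a transcription start, were matched by symbol for 8 of the 10 genes, all but Relb and Ikbkb. The kappaB consensus, searched on both strands, matched in 6 of these 8 windows, beside 1400 of all 33469 windows (4.18%). Capitals in the sequences below mark the matches, each printed 5′ to 3′ on the gene's strand. The windows are chr6:78597023-78597322 (minus strand) for Nfkbia, chr1:15543930-15544229 (minus strand) for Tnfaip3, chr2:226805413-226805712 (minus strand) for Nfkb1 and chr1:255108124-255108423 (plus strand) for Nfkb2, all by GRCr8 coordinates.
Nfkbia: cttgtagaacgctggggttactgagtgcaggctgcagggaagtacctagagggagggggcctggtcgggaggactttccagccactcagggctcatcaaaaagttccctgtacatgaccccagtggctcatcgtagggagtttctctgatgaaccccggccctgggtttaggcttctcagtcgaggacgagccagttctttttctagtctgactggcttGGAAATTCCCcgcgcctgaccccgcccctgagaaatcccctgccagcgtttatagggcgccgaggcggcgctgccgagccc
Tnfaip3: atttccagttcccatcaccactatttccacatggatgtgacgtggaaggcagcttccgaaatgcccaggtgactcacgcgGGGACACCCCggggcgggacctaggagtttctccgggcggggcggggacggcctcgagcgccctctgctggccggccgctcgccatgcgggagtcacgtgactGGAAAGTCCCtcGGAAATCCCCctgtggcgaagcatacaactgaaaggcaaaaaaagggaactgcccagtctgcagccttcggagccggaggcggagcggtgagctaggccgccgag
Nfkb1: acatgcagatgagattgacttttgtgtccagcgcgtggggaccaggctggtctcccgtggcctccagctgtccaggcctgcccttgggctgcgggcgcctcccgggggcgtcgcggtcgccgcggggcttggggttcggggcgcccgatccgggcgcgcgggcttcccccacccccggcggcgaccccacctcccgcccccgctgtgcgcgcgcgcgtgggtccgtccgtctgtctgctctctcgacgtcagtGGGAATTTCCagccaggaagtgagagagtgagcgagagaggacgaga
Nfkb2: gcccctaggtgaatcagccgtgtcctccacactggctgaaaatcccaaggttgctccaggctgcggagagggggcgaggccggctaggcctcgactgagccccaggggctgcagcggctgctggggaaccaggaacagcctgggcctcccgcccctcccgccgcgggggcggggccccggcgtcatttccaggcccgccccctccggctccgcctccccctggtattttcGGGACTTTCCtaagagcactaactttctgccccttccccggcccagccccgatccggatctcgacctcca

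In Nfkbia the match GGGAATTTCC lies on the opposite strand, with its first base in the window 31 bases before the start. Nfkb1 holds the same GGGAATTTCC on its own strand, beginning at base 4 of the transcript. Nfkb2 holds GGGACTTTCC on its own strand, 20 bases before the start. Tnfaip3 holds 3 matches, and 2 of them lie close together on the opposite strand, GGGACTTTCC at 67 and GGGGATTTCC at 55 bases before the start. The remaining match of Tnfaip3, GGGACACCCC, lies 170 bases before the start on its own strand. Rel had 3 matches that overlap each other within 1 stretch near 82 bases before its start, and Nfkbie had 1, GGGGGATTCC, 164 bases before its start. The windows of Rela and Nfkbib held none. A match is a description of the letters and not of binding, which was not measured, and a window belongs to 1 start chosen by the table.

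Messages for the 10 genes were rare in these cells. Together they gave 116 counts, 0.0114% of all counts, and 64 of the 520 gene-by-cell values were above 0. Of these 64, 39 were a count of 1, 15 a count of 2, 7 a count of 3 or 4, and 3 a count of 5 or more. Values of 0 made up 87.7% for the 10 genes, beside 87.8% over the whole table. Each of the 10 was found in at least 1 cell (84.0% of all genes were), 7 were found in at least 5 cells (43.0% of all genes), 1 in at least 20 cells (6.95%) and 3 reached 5 counts in some cell (27.4%). The median gene of the 10 was found in 5 cells and the median of all genes in 4. By detection the 10 genes stood near the table as a whole, with Nfkbia as the member that stood highest.

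**Figure D1:**
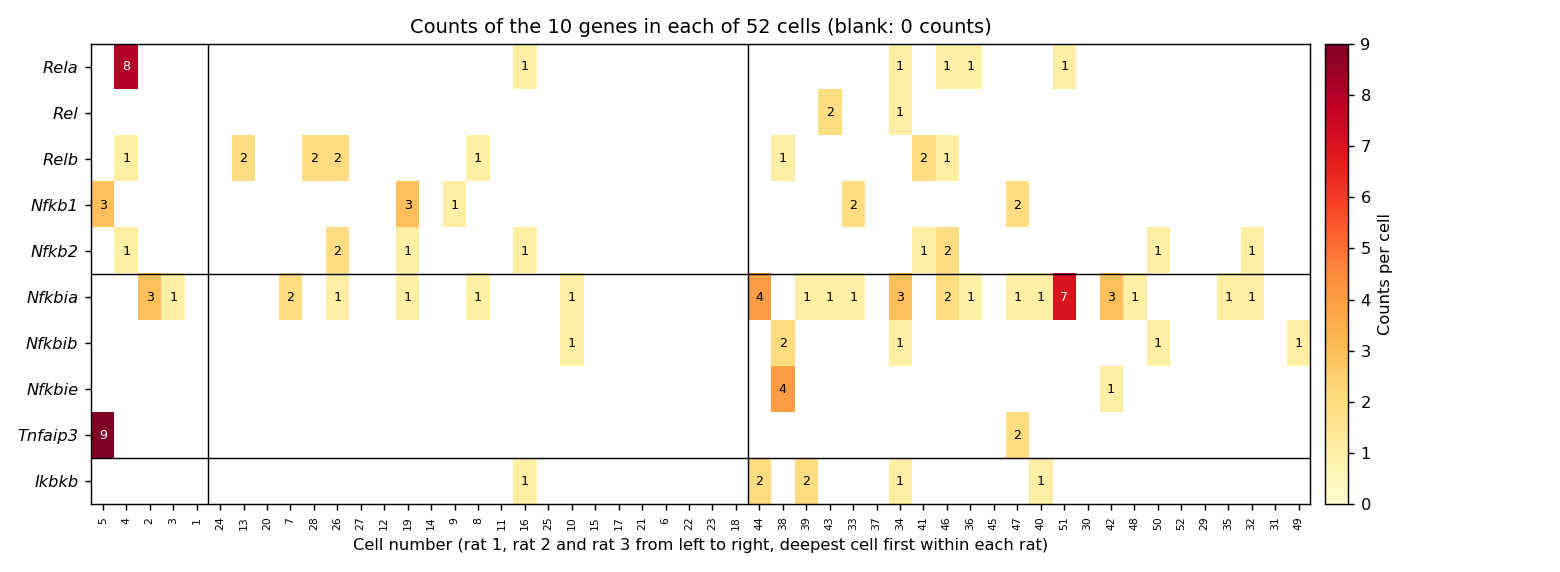
Raw counts of the 5 subunit genes (top), 4 inhibitor genes (middle) and Ikbkb (bottom) in each of 52 cells, ordered by rat and then from deepest to shallowest; blank squares are 0 counts. The Nfkbia row is filled in 21 cells, and the highest counts, 9 of Tnfaip3 and 8 of Rela, stand in rat 1 cell 5 and rat 1 cell 4.

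Nfkbia, the IkB that is degraded and resynthesised in each round of signalling, was the most often found of the 10. In the 5 cells of rat 1 it had 0, 3, 1, 0 and 0 counts. Its lowest, median and highest counts were 0, 0 and 2 in rat 2 and 0, 1 and 7 in rat 3. It was thus found in 21 of 52 cells (40.4%, exact Clopper-Pearson 95% interval 27.0 to 54.9), 2 of them in rat 1, 5 in rat 2 and 14 in rat 3. Averaged over rats this was 40.0% ± 18.3 (SD, n = 3 rats), from 21.7% in rat 2 to 58.3% in rat 3, beside 12.6% ± 3.88 over all genes. Rat 2 was also the shallowest. With cells thinned to 10000 counts, which kept 40 cells and left out 12, Nfkbia was at 34.5% in rat 1, 20.9% in rat 2 and 34.3% in rat 3. Rat 2 stayed lowest at equal depth, and the gap between rat 1 and rat 3 closed. The level of Nfkbia was 2.55 ± 1.07 on the log2(CPM + 1) scale (SD, n = 3 rats). Of its 21 cells, 14 held a count of 1, so most detections rest on the smallest value the assay can give. Its highest count, 7 in rat 3 cell 51, made 351.5 CPM. That cell had 5 of the 18 macrophage markers with a sum of 9 counts, and 24 counts over the fibroblast list, 17 of them of Col1a1.

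The other inhibitors were found in few cells. Nfkbib, which holds dimers in the cytoplasm like Nfkbia but is not resynthesised as fast, was found in 5 cells, 1 in rat 2 and 4 in rat 3, with at most 2 counts. Nfkbie had counts in 2 cells of rat 3, 4 in cell 38 and 1 in cell 42. Cell 38 had 61402 counts in all, and its sums were 2 for the macrophage list and 147 for the smooth muscle list. Tnfaip3, which ends signalling by editing ubiquitin chains on adaptor proteins, had 9 counts in rat 1 cell 5 and 2 in rat 3 cell 47 and was listed at 0 in the other 50 cells. Rat 1 cell 5 was the deepest cell of that rat, at 40222 counts. It held 3 of the 18 macrophage markers, with 16 counts of Itgam, 5 of Adgre1 and 3 of Cybb, and 0 of the other 15, Cd68, Csf1r and Ptprc among them. Of the neutrophil markers it held 27 counts of Csf3r and 2 of Cxcr2 and 0 of S100a8, S100a9, Mpo and Camp. Of the smooth muscle markers it held 22 counts of Cnn1, 2 of Acta2 and 0 of Myh11, and the endothelial marker Kdr had 5. A count of 0 in all 23 cells of rat 2, as for Rel, Nfkbie and Tnfaip3, allows up to 13.0% of its cells to hold a count.

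**Figure D2:**
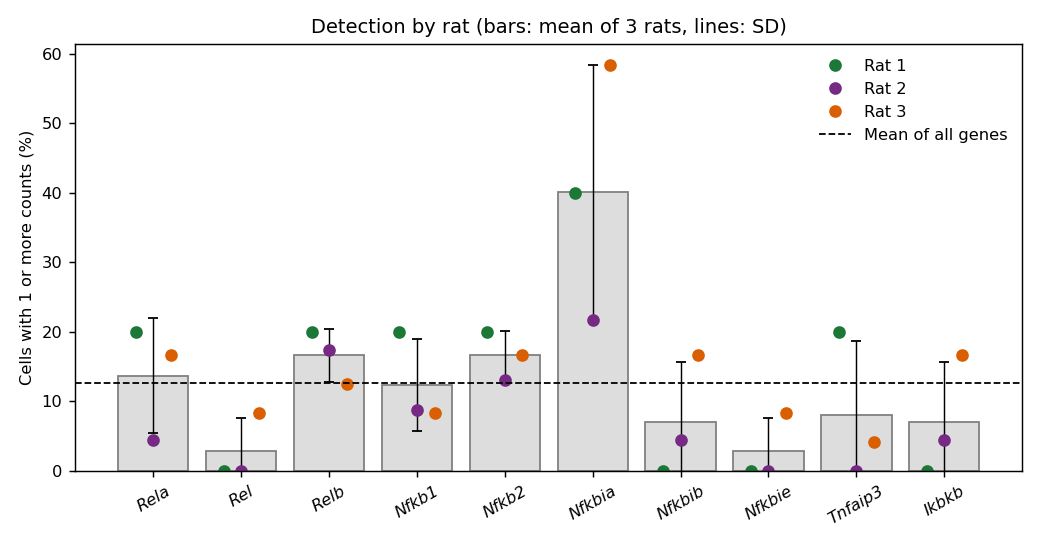
Percent of cells with 1 or more counts for each gene; points are the 3 rats, bars their mean, vertical lines the SD (cut at 0), and the dashed line is the mean of all 22081 genes, 12.6%. All 3 points of Nfkbia lie above the dashed line, and the other genes lie at or below 20%.

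Each subunit was found in 2 to 8 cells. Relb and Nfkb2, the pair of the non-canonical branch, were found in 8 cells each, in all 3 rats, with at most 2 counts in a cell. Relb was at 16.6% ± 3.81 of cells and Nfkb2 at 16.6% ± 3.48 (SD, n = 3 rats). Rela, the main activating subunit of the canonical branch, was found in 6 cells, 1 in rat 1, 1 in rat 2 and 4 in rat 3 (13.7% ± 8.24, SD, n = 3 rats). Of those cells, 5 held a single count, and the remaining cell, rat 1 cell 4, held 8. Nfkb1 was found in 5 cells, 1 in rat 1, 2 in rat 2 and 2 in rat 3 (12.3% ± 6.63, SD, n = 3 rats), and 4 of the 5 held 2 or 3 counts. Rel, the subunit best known from lymphocytes and activated myeloid cells, had 1 count in rat 3 cell 34 and 2 in rat 3 cell 43. Among subunits, the order by mean detection was Relb, Nfkb2, Rela, Nfkb1 and Rel, and neighbours in this order differed by less than the spread between rats, except that the step from Nfkb1 to Rel, at 2.78% ± 4.81, was larger than either SD. Ikbkb, the kinase that phosphorylates IkB, was found in 5 cells, 1 in rat 2 and 4 in rat 3, with at most 2 counts. In RefSeq its gene overlaps Plat and Nfkbib overlaps LOC103689966, and a deposited index sheet names a stranded mRNA assay where the labels name the SMART-Seq kit. Whether counting used strand is not given in the sources used here, so some of their counts could belong to those neighbours.

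Rat 1 cell 4 held the largest Rela count together with the largest number of macrophage markers. It had 8 counts of Rela, 1 of Relb and 1 of Nfkb2, and 0 of all 4 inhibitors. It had 11 of the 18 macrophage markers, 10 of them at 5 or more counts, among them 236 counts of Lyz2, 52 of Cybb and 33 of Cd68. With 36177 counts in the cell, 0 counts of Nfkbia allow up to 82.9 CPM, so a low Nfkbia level in it cannot be told from none. The 2 cells with higher summed macrophage counts held few counts of these genes. Rat 3 cell 39, at 1403 marker counts, held 1 count of Nfkbia and 2 of Ikbkb, and rat 2 cell 7, at 546, held 2 counts of Nfkbia and none of the other 9 genes.

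The difference between the best known inhibitor and the p50 precursor was the only detection contrast tested. Nfkbia was found in more cells than Nfkb1 by 20.0 percentage points in rat 1, 13.0 in rat 2 and 50.0 in rat 3. The mean difference was 27.7 ± 19.6 points (SD, n = 3 rats), above 0 in 3 of 3 rats, with p = 0.25 in a 2-sided exact sign-flip permutation test (adjusted p = 0.5, 2 tests). With 3 rats 0.25 is the smallest p this test can give, so it could not pass 0.05. The difference was 16.5 points without rat 3, 42.7 points without rat 1 cells 4 and 5, which held the highest Rela and Tnfaip3 counts, and rat 2 cell 25 and rat 3 cell 44, which each had 1 dominant feature, and 4.17 points when 2 counts were needed. In that last case both genes were found in 1 cell each in rat 1 and in rat 2, so only rat 3, with 5 cells against 2, was above 0 (exact p = 1). Rat 1 cell 5 held the only Nfkb1 counts of rat 1, and neither it nor rat 1 cell 4 held Nfkbia. Leaving these cells out could thus only raise the difference in rat 1. No lengths of the counted transcripts were used, so detection is not corrected for length, and the Nfkb1 transcript is known to be longer than that of Nfkbia.

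Subunits and inhibitors were next compared within cells. A count of at least 1 subunit was found in 20 cells, of at least 1 inhibitor in 25 cells, of both in 14 cells, and of neither in 21 cells. Thus 6 cells had a subunit without an inhibitor and 11 had an inhibitor without a subunit. Rat 1 had 1 cell with both among 5, rat 2 had 3 among 23 and rat 3 had 10 among 24. The 21 cells with neither also lacked Ikbkb, and 14 of them came from rat 2, 6 from rat 3 and 1 from rat 1. If subunits and inhibitors were spread independently over the cells of each rat, 10.5 cells would hold both. The observed number exceeded this by 6.43 percentage points of cells in rat 2 and 9.20 in rat 3, and stood at -4 points in rat 1, a mean of 3.88 ± 6.96 points (SD, n = 3 rats). The spread between rats was larger than this mean, which was 1.21 points without rat 3, 7.81 without rat 1 and 2.60 without rat 2. Thinned to 10000 counts the mean was 0.877 points.

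**Figure D3:**
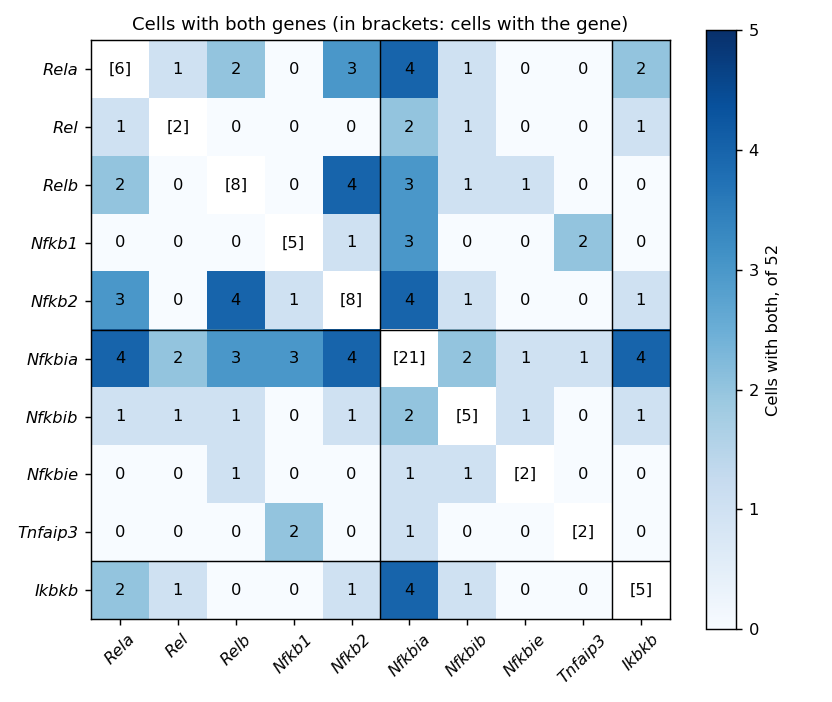
Number of cells, of 52, in which both genes of a pair had 1 or more counts; brackets on the diagonal give the cells with each gene, and lines part subunits, inhibitors and Ikbkb. The most cells shared by a pair is 4, for Nfkbia with Rela, Nfkb2 or Ikbkb and for Relb with Nfkb2, and 20 of 45 pairs share none. Summed over the 45 pairs, 48 shared cells were counted, beside 36.5 given by the product of shares within rats. Depth was not removed from this sum, and it was not set beside pairs of other genes.

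Depth moved with co-occurrence. The median total was 24322 counts in cells with both kinds, 20356 with a subunit only, 15314 with an inhibitor only and 11827 with neither. Among the 18 deepest cells (19915 to 84848 counts) 9 held both kinds, among the 17 middle cells (11827 to 19338 counts) 3 did, and among the 17 shallowest cells (1538 to 11802 counts) 2 did. Nfkbia was found in 10, 7 and 4 cells of these sets, and all genes on average in 18.8%, 10.4% and 7.02% of them. When the product of the shares was taken within the deeper and the shallower cells of each rat, a comparison added after the data were seen, the mean excess was 4.67 ± 4.26 points (SD, n = 3 rats). The part of depth in the result was not tested beyond these values.

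**Figure D4:**
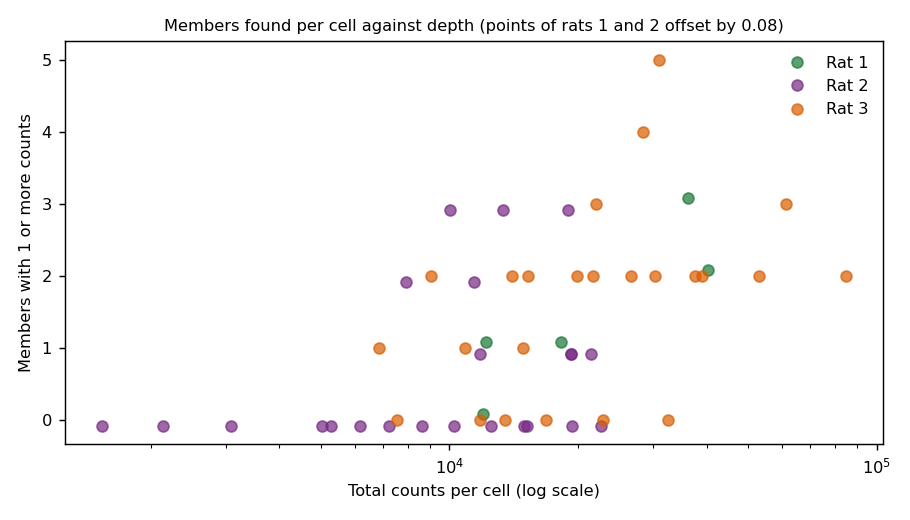
Number of the 10 genes found in each cell against its total counts on a log scale, coloured by rat, with small vertical offsets for rats 1 and 2. Cells with none of the 10 lie between 1538 and 32428 counts, and the cells with 4 or 5 of them had 28339 and 30984 counts.

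By pair, 11 of the 20 subunit and inhibitor pairs shared at least 1 cell. Summed over the 20 pairs, 23 shared cells were counted, beside 18.1 given by the product of shares within rats. Depth was not removed from these sums, and the share of pairs with a shared cell was not computed for other genes. Rela, whose p65 protein binds IkB-alpha directly, shared 4 of its 6 cells with Nfkbia, all in rat 3. The product of shares within rats gave 2.95 cells. Per rat, Rela with Nfkbia stood at -8 points in rat 1, -0.945 in rat 2 and 6.94 in rat 3 relative to the product, a mean of -0.667 ± 7.48 (SD, n = 3 rats), above 0 in 1 of 3 rats, with an exact sign-flip permutation p of 0.75 (adjusted p = 0.75). The sign was set by rat 1, since the mean was 3.00 points without it. Nfkb2 also shared 4 of its 8 cells with Nfkbia, Nfkb1 3 of 5, Relb 3 of 8 and Rel both of its 2. With any inhibitor, Rel was found in 2 of 2 cells, Nfkb1 in 4 of 5, Rela in 4 of 6, Nfkb2 in 5 of 8 and Relb in 4 of 8. An inhibitor was found in 25 of all 52 cells, and in 17 of the 24 cells of rat 3, which held both Rel cells. The shares with any inhibitor were not compared with those of other genes. Ikbkb shared 4 of its 5 cells with Nfkbia.

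The shares with Nfkbia were set beside those of all genes. For each of 9493 genes found in at least 5 cells, the cells shared with Nfkbia were divided by the number that the product of shares within rats gives. This ratio was over 1 for 62.2% of genes, with a median of 1.08 and quartiles of 0.886 and 1.27, and for 48.6% of genes without rat 3. Of the 6 members with enough cells, 4 were over 1. The ratio was 1.57 for Ikbkb, 1.50 for Nfkb1, 1.36 for Rela, 1.18 for Nfkb2, 0.994 for Relb and 0.784 for Nfkbib. A share of 4 in 6 is near the 62.2% of all genes, and the members' median ratio was 1.27.

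Within the subunits, cells were shared unevenly. Relb and Nfkb2 were found together in 4 cells, rat 1 cell 4, rat 2 cell 26, rat 3 cell 41 and rat 3 cell 46, so each shared 4 of its 8 cells with the other and the pair occurred in 3 of 3 rats. The product of shares within rats gave 1.22 cells, a ratio of 3.27. Over 9493 genes the median ratio with Relb was 1.47, and 3.48% of genes had a ratio at least as high as Nfkb2. With the product taken within the deeper and the shallower cells of each rat the ratio was 2.46, reached by 4.36% of 9491 genes. This pair was singled out after its values were seen, and each shared cell rests on 1 or 2 counts of each gene. Rela and Nfkb2 shared 3 cells, rat 1 cell 4, rat 2 cell 16 and rat 3 cell 46, also in 3 of 3 rats, a ratio of 3.01. Rela and Relb shared 2, rat 1 cell 4 and rat 3 cell 46, a ratio of 2.29. Both of those cells also held Nfkb2, so a high ratio was not particular to Relb with Nfkb2. These 2 ratios with Rela were not set beside all genes. Of the 10 subunit pairs, 5 shared no cell. Nfkb1 was found in no cell with Rela, Rel or Relb and in 1 cell with Nfkb2, while the product gave 0.620 cells for Rela and 0.798 for Relb, so fewer than 1 shared cell was the product's value for either pair. Both cells with Tnfaip3 also held Nfkb1, with 3 Nfkb1 counts beside 9 of Tnfaip3 in rat 1 cell 5 and 2 beside 2 in rat 3 cell 47. The product gave 0.283 cells for Nfkb1 with Tnfaip3. This pair too was singled out after its values were seen, and both of its cells were among the 18 deepest. It was not set beside all genes.

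Genes with a pattern most like that of Nfkbia were ranked by the Jaccard index, the share of cells with either gene that hold both, over 52 cells and 4565 genes found in at least 10 cells. The highest were Osr2 (0.643, 18 shared cells), Barhl1 (0.607, 17), Btrc (0.586, 17), Sec62 (0.581, 18) and Runx2 (0.567, 17), beside a median index of 0.286. The index depends on how many cells hold each gene, and these 5 were found in 24 to 28 cells, beside 21 for Nfkbia. The median covers genes in fewer cells too, so it is not a matched background. The index was not taken within rats, and 14 of the 21 Nfkbia cells came from rat 3. For Ikbkb, with 5 cells, the first 5 names tied at 0.364 with 4 shared cells each, AABR07026930.1, Aggf1, Ccdc146, Mical2 and Mpzl3, beside a median of 0.107. Each of these 5 genes was found in 10 cells, the fewest allowed. At a given number of shared cells the index is highest for genes in the fewest cells, so the cutoff shaped this ranking. Ties were ordered by alphabet, and further genes may hold the same value. Cells that held the genes nearest to Nfkbia had median totals of 19612 to 21996 counts, beside 19309 for cells with Nfkbia and 15068 for all cells. For the genes nearest to Ikbkb the median totals were higher, 25582 to 35001 counts, beside 30984 for cells with Ikbkb.

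The wider pathway was followed through 4 lists. Of 20 kinases and adaptors with a row, all were found in some cell (84.0% of all genes were), 11 in at least 5 cells (43.0% of all genes) and 6 reached 5 counts (27.4%). The median of this list was 6 cells, beside 4 for all genes. Ripk1, a kinase at the tumour necrosis factor receptor, was found in 27 cells, Tab2, an adaptor of the kinase TAK1, in 21, and Map3k14, which encodes NIK, in 11. The other subunits of the IKK complex were Chuk, found in 9 cells with at most 2 counts, and Ikbkg, found in 1 cell with 3 counts. The highest counts of this list were 16 of Myd88 in rat 2 cell 13, 14 of Traf6 in rat 3 cell 47 and 12 of Ripk1 in rat 2 cell 28. Rat 3 cell 47 is also 1 of the 2 cells with Tnfaip3.

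Among 14 receptors, 10 were found in at least 5 cells (43.0% of all genes were) and 6 reached 5 counts (27.4%), with a median of 6 cells. Tlr6, a partner of Tlr2 in sensing lipopeptides, was found in 34 cells with at most 8 counts. Tnfrsf11a, the receptor RANK, was found in 18 cells and Tlr7, a sensor of single-stranded RNA, in 11. Tnfrsf1b, the second receptor for tumour necrosis factor, was found in 4 cells, with 112 counts in rat 3 cell 33. Tlr2 had 29 counts in rat 3 cell 34, the cell with 5 of the 10 core genes, and Tlr7 had 23 in rat 2 cell 7. Tlr4, the receptor for lipopolysaccharide, was found in 6 cells with at most 2 counts.

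Other members of the IkB family and negative regulators were found in a median of 5 cells, 6 of 11 in at least 5 cells (43.0% of all genes were), and 5 of 11 reached 5 counts (27.4%). Cyld, a deubiquitinase that restrains signalling, was found in 10 cells with 47 counts in rat 2 cell 12. Tnip3, a partner of A20, was found in 9 cells with at most 8 counts. Nfkbiz, a nuclear IkB protein, was found in 6 cells with 12 counts in rat 2 cell 11. Tnip1, another partner of A20, had 51 counts in rat 3 cell 34. Rat 2 cells 11 and 12 held none of the 10 core genes.

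Of 28 targets of NF-kB, 25 were found in some cell (84.0% of all genes were), 7 in at least 5 cells (43.0%) and 8 reached 5 counts (27.4%). The median target was found in 3 cells, beside 4 for all genes. Bcl2l1, a survival gene, was found in 23 cells with at most 6 counts. Ptgs2, the inducible cyclooxygenase, was found in 18 cells with at most 3 counts. Mmp9, a gelatinase, was found in 7 cells with at most 7 counts. The highest counts were 57 of Sele, an endothelial adhesion molecule, and 13 of Gadd45b, both in rat 2 cell 13, which also held the highest Myd88 count and 2 counts of Relb. The marker sums of that cell were mixed, 74 for the macrophage list, 15 for the fibroblast list and 23 for the endothelial list, the highest endothelial sum of any cell. Ccl3, a macrophage chemokine, had 10 counts in rat 2 cell 20, which held none of the core genes. Tnf, Ccl5 and Cxcl1 were listed at 0 in all 52 cells, which allows up to 5.77% of cells with a count. Averaged over genes and rats, the 10 core genes were found in 12.7% ± 4.78 of cells, beside 14.3% ± 5.23 of kinases and adaptors, 16.6% ± 3.82 of receptors, 9.57% ± 2.72 of negative regulators and 7.52% ± 1.99 of targets (SD, n = 3 rats). The 1251 sensory receptor genes, taken as a background set by symbols starting with Olr or Vom, stood at 2.17% ± 0.948 and all genes at 12.6% ± 3.88. At 5 or more counts the 10 genes stood at 1.47% ± 2.20 and all genes at 1.99% ± 0.785 (SD, n = 3 rats), and 80 ribosomal protein genes stood at 10.1% ± 3.22. None of these shares was tested against another.

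**Figure D5:**
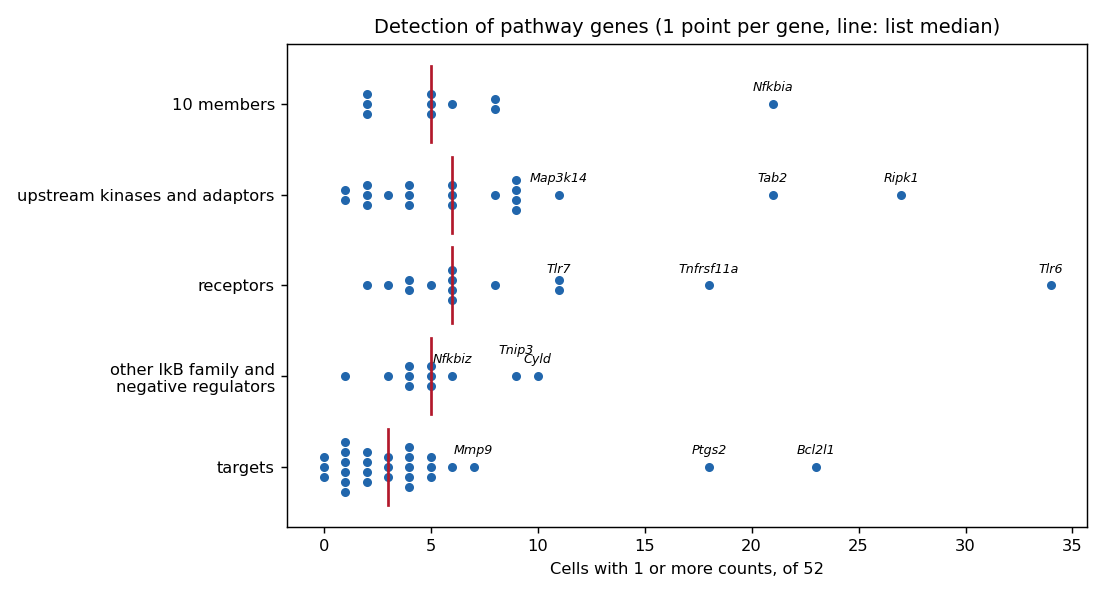
Cells, of 52, in which each gene had 1 or more counts, for the 10 genes and 4 pathway lists; each point is a gene, the vertical line is the list's median, and the most often found genes are named. Medians lie between 3 cells for targets and 6 for kinases and adaptors and for receptors, and Nfkbia stands apart among the 10 genes at 21 cells.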

How the data were processed

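The authors deposited 1 table of raw counts per gene symbol and cell, whole numbers with no normalization, as the values show. How reads were aligned and counted, on which build, is not given in the sources used. A deposited sheet of index sequences was read only for the assay it names, and no value rests on it. Columns were assigned to cells and rats by title, and 0 were left over. The members and lists were chosen with earlier results of these data known.

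A gene counted as found at 1 or more counts. Shares of cells and log2(CPM + 1) levels, with the column total as library size, were computed per rat, and means and SDs are over the 3 rats. The labels give 1 group, so there was no gene-wise test between groups, and edgeR served only for TMM scaling as an alternative. Both tests were 2-sided exact sign-flip permutation tests over rats. Nothing says whether the rats were operated on together. Thinned shares were computed exactly for sampling without replacement. Cells were cut singly, and doublets were not called. Some libraries held markers of more than 1 list, as rat 2 cell 14 with sums of 56 for the macrophage and 576 for the fibroblast list. Co-occurrence here is within a library, and whether a library held material of more than 1 cell was not tested. The computation of the co-detection ratio and of the thinning was checked on simulated data with known answers. For the ratio these were Poisson counts from a pooled profile scaled to the depth of each cell. They lacked the differences between rats, so the check covers the arithmetic and not how the ratio behaves in these libraries.

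Named genes were the 10 members, in each pathway list the 3 found in most cells and up to 3 reaching 5 counts, and the 5 nearest to Nfkbia and to Ikbkb. Further genes (Chuk, Ikbkg, Tlr4, Tnf, Ccl5, Cxcl1 and markers of single cells) were chosen after their values were seen. Of 22081 symbols 16686 matched the RefSeq GRCr8 gene table, as did all 10 members. Software was edgeR 4.0.16 under R 4.3.3, and scipy 1.17.1, pandas 2.3.3, numpy 2.4.6 and matplotlib 3.10.9 under Python 3.11.15.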

Additional observations from a re-analysis of the deposited data

How the results depend on the processing

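At 5 counts the 10 genes had 3 values, in 3 cells, so values at that setting say nothing of stability. Nfkbia minus Nfkb1 detection ranged from 4.17 points at 2 counts, where it was 0 in rats 1 and 2, to 42.7 without 4 extreme cells, a choice made after seeing the data, and from 16.5 to 35.0 points when 1 rat was left out; at 5 counts, which Nfkb1 never reached, it was 1.39. Rela with Nfkbia turned from -0.667 to 2.02 points with every cell weighted equally, 1.84 with the product within deeper and shallower cells, 2.18 without the 4 cells, and 0 at 5 counts; leaving out 1 rat gave -4.47 to 3.00. Any subunit with any inhibitor turned to -1.33 points at 5 counts, and leaving out 1 rat gave 1.21 to 7.81. The percent of genes with a Nfkbia ratio over 1 was 56.9 with genes in at least 1 cell, 68.5 in at least 10 and 51.8 at 2 counts, and 48.6 to 69.7 with 1 rat left out. The cause of these shifts was not tested. Of 80 alternative detection values of single members 71 moved by less than the SD over rats, as did 49 of 70 levels, and 20 of the other 21 levels were those with pseudocounts of 0.1 and 10. For Rel, Nfkbib, Nfkbie, Tnfaip3 and Ikbkb the SD was larger than the mean, so even a fall to 0 stayed below it. Rel detection, at 2.78% ± 4.81, fell to 0 at 5 counts in this way. The numbers of values below the SD are therefore no measure of stability. No paired analysis was possible between groups because there is 1 group; both tests compare values within each rat. Keeping the 47 cells with 1000 or more genes changed the direction of none of these 4 results.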
